A study of Mus musculus with 4 samples.

Results

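A rule meant for pericytes and mural cells of the embryonic mouse kidney was met by 201 barcodes in 4 Drop-seq libraries. Of these, 20 were led by genes of another cell type, as described below. The name mural barcodes here means those that met the rule. The rule took barcodes with at most 10% of their UMIs (transcript counts per barcode) from mitochondrial genes, at least 2 UMIs summed over Rgs5, Kcnj8 and Abcc9, and none of Pecam1, Cdh5, Lum, Ogn and Lhx1. Pecam1 and Cdh5 are endothelial genes, Lum and Ogn belong to matrix-rich fibroblasts, and Lhx1 to the early nephron. The 201 barcodes were 1.62% of the 12399 barcodes within the mitochondrial limit, out of 15144 in all. The barcodes were thus chosen by the UMI counts of these 8 genes and by the mitochondrial share. Because of that the levels of these genes are described, and no test result is given for them.

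Drop-seq catches single cells in droplets with barcoded beads and counts the 3' ends of their transcripts. The mutant kidneys (2 libraries) carried the genotype given as Hoxa9,10,11 and Hoxd9,10,11 -/-, which touches 6 genes of the Abd-B class, and the wildtype kidneys (2 libraries) did not. Both groups were taken at E14.5 from mice of a mixed background, mainly CD-1 and 129. The title of the series asks how a reduced Abd-B function bears on lineage fidelity in kidney development, and no label says whether libraries of a genotype came from separate animals, so p-values here cover differences from library to library alone, which can be technical in origin. The members numbered 14 in mutant 1 and 90 in mutant 2, against 39 in wildtype 1 and 58 in wildtype 2. The 4 libraries held between 3572346 and 24834658 counts, mutant 1 being the shallowest, and mutant 1 and mutant 2 had 19.6% and 29.1% of their barcodes above the mitochondrial limit, against 7.76% and 9.06% in wildtype 1 and wildtype 2.

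Mural cells wrap the outside of vessels: pericytes on capillaries, smooth muscle on arterioles. Endothelium recruits them with PDGF-B, which binds the receptor PDGFRB on the mural cell, and Notch ligands on endothelium act on NOTCH3 and its target HEYL. In the kidney the mural lineage arises from Foxd1-positive stroma and also gives the mesangium of the glomerulus and the renin cells of the arterioles. RGS5 shortens signalling by G proteins, and KCNJ8 and ABCC9 are the pore and the sulphonylurea-binding subunit of the ATP-sensitive potassium channel of vascular muscle. Kcnj8 and Abcc9 are neighbours on chromosome 6, on the same strand and 16247 bases apart in mm10 (GENCODE annotation).

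The start regions of the channel genes are shown because both count towards the rule and because they can be read beside the Notch genes of the members. Each sequence spans 250 bases before to 50 bases after the start of the RefSeq gene on GRCm38.p6, and the capitals mark TGGGAA, the core letters bound by the Notch-pathway factor RBPJ. The Kcnj8 window is chr6:142571565-142571864 and the Abcc9 window is chr6:142702225-142702524, both on the minus strand.
Kcnj8: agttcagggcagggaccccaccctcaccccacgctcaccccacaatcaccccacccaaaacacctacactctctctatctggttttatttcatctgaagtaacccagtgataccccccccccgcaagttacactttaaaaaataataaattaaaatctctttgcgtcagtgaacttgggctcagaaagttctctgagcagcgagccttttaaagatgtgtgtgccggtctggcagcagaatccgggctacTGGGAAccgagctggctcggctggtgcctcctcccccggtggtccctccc
Abcc9: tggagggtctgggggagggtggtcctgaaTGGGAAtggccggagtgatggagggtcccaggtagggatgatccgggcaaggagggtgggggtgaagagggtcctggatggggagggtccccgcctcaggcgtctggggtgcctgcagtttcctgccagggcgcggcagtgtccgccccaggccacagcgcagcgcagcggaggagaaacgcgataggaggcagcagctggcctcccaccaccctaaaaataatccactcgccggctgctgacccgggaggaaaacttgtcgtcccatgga
TGGGAA, searched on both strands, occurred in 25.6% of the 32841 promoters of the same length, so 1 match in each of these windows is common. The Rgs5 window (chr1:169655251-169655550, plus strand) held no TGGGAA.

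The members carried few UMIs of the genes that chose them, and 20 of the 201 were set apart by genes of another cell type. These 20 barcodes had at least 2 UMIs over 6 genes of catecholamine synthesis and storage (among them Chga, Chgb, Th and Dbh, and together called the chromaffin genes), and 19 of them had 12 or more. All 20 came from the mutant libraries, 2 from mutant 1 and 18 from mutant 2, against 0 in both wildtype libraries. In them Chga, a core protein of secretory granules, stood at 5395 and 4851 CPM (the UMIs of a gene scaled to a common total of summed UMIs) in mutant 1 and mutant 2. Rgs5 gave 203 UMIs in these 20 barcodes, while Kcnj8 gave 2, Abcc9 1 and Pdgfrb 4, and 18 of the 20 entered through Rgs5 alone. Rgs4, which lies 45663 bases from Rgs5 on chromosome 1, stood at 1730 and 1172 CPM in them, the mutant 1 value resting on 17 UMIs of 1 barcode. Their leading genes go against the label, and the comparisons below are given with and without them. That choice was made after their values were seen.

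**Figure D1:**
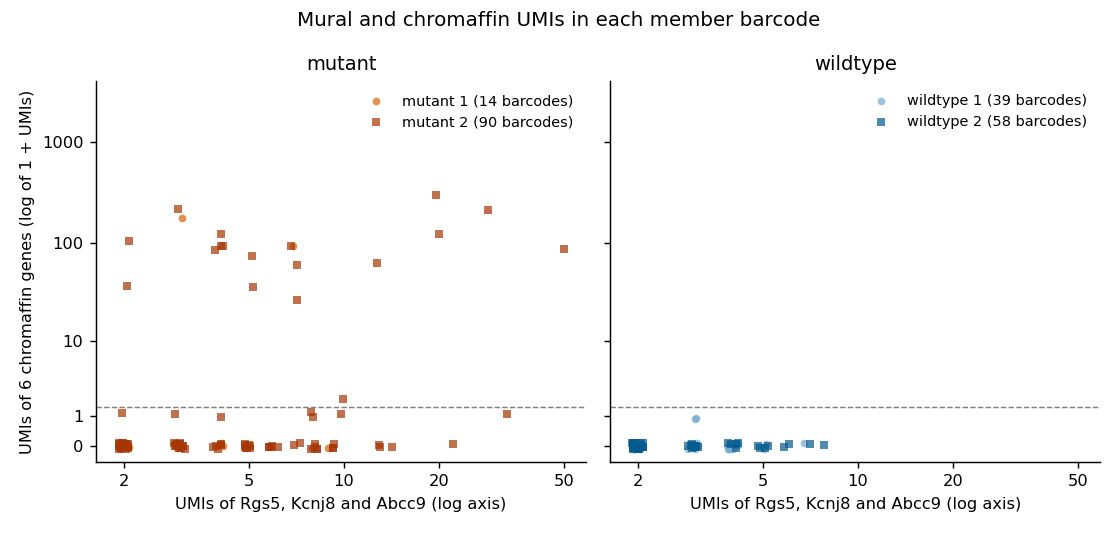
UMIs of the chromaffin genes against UMIs summed over Rgs5, Kcnj8 and Abcc9, 1 point per member barcode, with the mutant libraries in the left panel and the wildtype libraries in the right panel. The 19 barcodes with 12 or more chromaffin UMIs are all in the mutant panel, and the other members lie near 0 on that axis.

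The other 181 members (12 and 72 in the mutant libraries, 39 and 58 in the wildtype libraries) held Rgs5 in 119 barcodes (346 UMIs), Kcnj8 in 125 (265 UMIs) and Abcc9 in 61 (96 UMIs). Both channel subunits were found together in 49 barcodes and all 3 genes in 20, most of them in mutant 2. Both subunits were in 4 of 12 and 38 of 72 barcodes in mutant 1 and mutant 2. In wildtype 1 and wildtype 2 they were in 2 of 39 and 5 of 58. Rgs5 was the only one of the 3 in 44 barcodes, Kcnj8 in 28 and Abcc9 in 5. At the threshold of the rule, 79 of the 181 had exactly 2 mural UMIs, and barcodes with exactly 1 lay just outside it. Those with exactly 2 were 41.7% and 30.6% in mutant 1 and mutant 2, against 43.6% and 60.3% in wildtype 1 and wildtype 2. The members of the genotypes thus differed in makeup, and the part of that in the genotype comparisons below was not tested. The share of all barcodes with at least 1 mural UMI was 4.15% ± 0.259 in the mutant libraries and 3.91% ± 0.136 in the wildtype libraries (SD, n = 2 each).

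Free RNA in droplets sets a floor under such counts. Among cells that should lack these genes, at least 2 mural UMIs were found in 2 of 683 endothelial barcodes (0.293%), 1 of 515 podocyte barcodes (0.194%), 1 of 202 immune barcodes (0.495%) and 1 of 134 erythroid barcodes (0.746%). Another set had at least 2 UMIs over the stromal genes Foxd1, Ntn1 and Crabp1 and none of the 5 excluded genes. Its lineage gives rise to mural cells, and 44 of its 896 barcodes (4.91%) had at least 2 mural UMIs. These 44 met the rule and are members, so their share is no floor. The cortical stromal set compared below is another one, without UMIs of the mural genes. The median depth of the members was 4492.5 and 5413 UMIs in mutant 1 and mutant 2, against 3410 and 4899 in wildtype 1 and wildtype 2, and that of the endothelial barcodes was 4389 and 4833 in mutant and 4144 and 5076 in wildtype libraries. Requiring 0 UMIs of the 5 excluded genes removed 93 of 294 barcodes, most of them for Lum (55) or Ogn (37), so mural barcodes with fibroblast genes are outside the set by construction. No doublets were removed, and 5 of the 201 were among the 621 barcodes with the highest doublet scores (the top 5% of each library by Scrublet). UMIs of other lineages were common. At least 2 UMIs were found of the nephron progenitor list in 77 of the 201, the epithelial in 44, the neural in 44, the podocyte in 17 and the immune in 0. Together these lists marked 124 members. Itga8 and Gata3, on the first and second of these lists, are also on the mesangial list. The endothelial list had at least 2 UMIs in 74 members and the erythroid list in 112. Of all barcodes, 3 occurred in more than 1 library, and none of those was a member in more than 1 of them.

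Mural genes that the rule did not use were counted in the 181 barcodes. Pdgfrb, the receptor for endothelial PDGF-B, was found in 103 of the 181 barcodes, and stood at 132 and 267 CPM in mutant 1 and mutant 2, and at 326 and 98.8 CPM in wildtype 1 and wildtype 2. The genotypes overlapped. Heyl, a Notch target of mural cells, was found in 74 barcodes, at 161 and 147 CPM in the mutant libraries and 199 and 76.2 CPM in the wildtype libraries, which also overlapped. Gucy1a3, a subunit of the nitric oxide receptor guanylate cyclase, stood at 513 and 644 CPM in the mutant libraries and 332 and 268 CPM in the wildtype libraries. Its partner subunit Gucy1b3 stood at 190 and 195 CPM in mutant and 187 and 150 CPM in wildtype libraries. Of the 26 genes on the mural list, 24 were in the tables and all 24 had at least 1 UMI in these members. At the low end, Vtn gave 1 UMI, Higd1b 2, P2ry14 2, Steap4 3 and Anpep 3, all of them genes used to mark pericytes of adult tissues.

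Of the smooth muscle list, 172 of the 181 members had at least 2 UMIs, and the genes most specific to contractile cells were found in fewer barcodes. Acta2, smooth muscle actin, was found in 90 of the 181 barcodes with 375 UMIs, Tagln (transgelin) in 20, Actg2 (gamma smooth muscle actin) in 18 and Myh11, the heavy chain of smooth muscle myosin, in 7. Summed over 5 contractile genes, 10 barcodes had at least 10 UMIs (2 in mutant 1 and 8 in mutant 2, against 0 in both wildtype libraries) and 83 had none. At this depth a count of 0 does not show that a barcode lacked the transcript. Tpm1, a tropomyosin that many cells use, stood at 1787 and 1374 CPM in the mutant libraries and 785 and 533 CPM in the wildtype libraries. Genes of dividing cells were widespread, with Top2a in 117 barcodes and Mki67 in 106. Pdgfra, a receptor of interstitial stroma, was found in 40 and Foxd1 in 18.

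Renin itself was rarely counted. Ren1 gave 7 UMIs in 3 of the 181 barcodes, all in mutant 2, and none in the other libraries. Akr1b7, an aldo-keto reductase known to mark renin-lineage cells, was found in 50 barcodes, 1 and 11 in the mutant libraries and 15 and 23 in the wildtype libraries. The angiotensin receptor gene Agtr2 stood at 43.9 and 143 CPM in mutant and 157 and 127 CPM in wildtype libraries, and Agtr1a at 0 and 38.7 CPM in mutant and 30.2 and 14.1 CPM in wildtype libraries. Ace and Agtr1b gave no UMI.

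**Figure D2:**
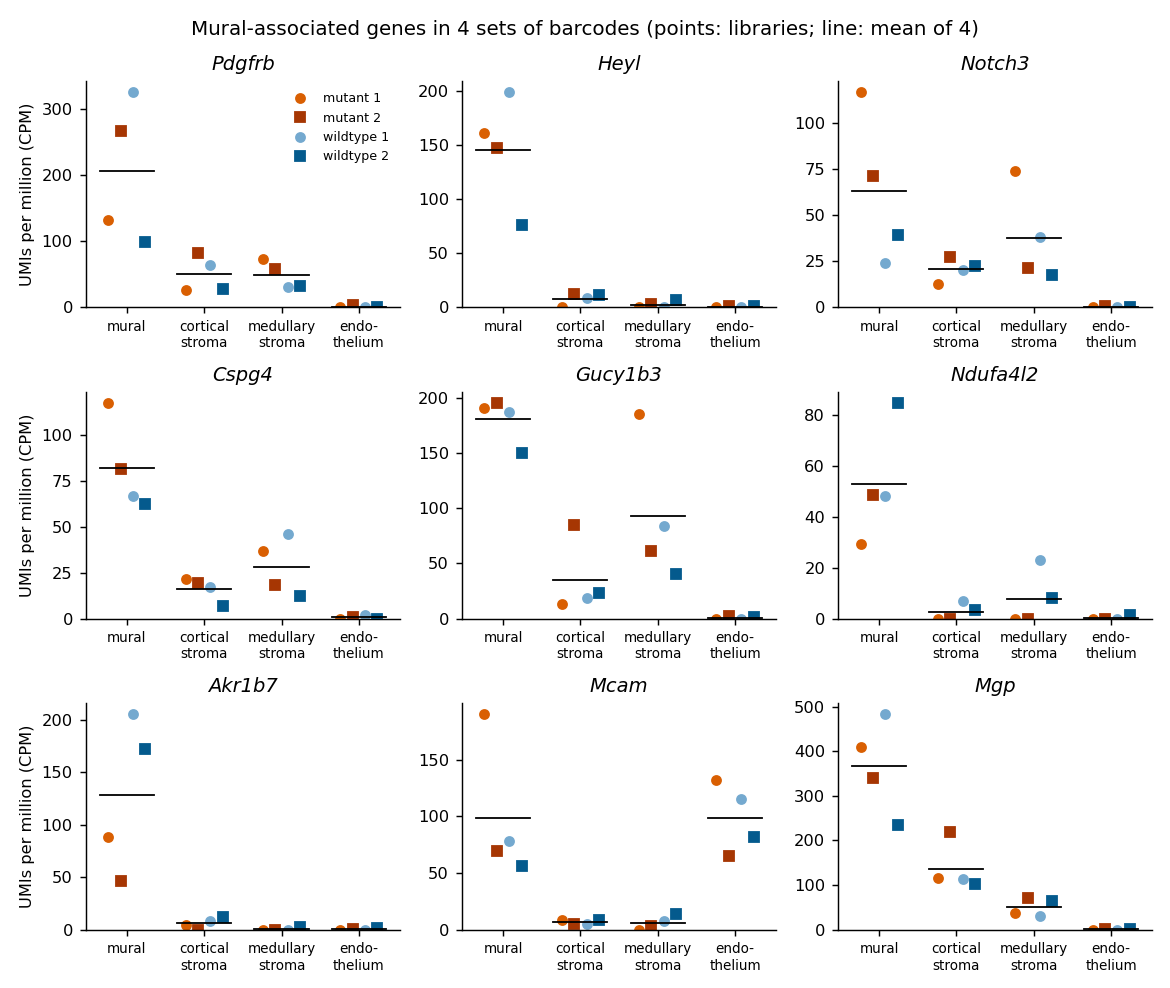
CPM of 9 genes that the rule did not use, in mural barcodes without chromaffin genes and in cortical stromal, medullary stromal and endothelial barcodes; points are the 4 libraries and lines their mean. Pdgfrb, Heyl, Akr1b7 and Mgp are higher in the mural barcodes of every library than in the endothelial barcodes of the same library.

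Against cortical stroma the mural barcodes stood out by genes of vessel support. The 709 cortical stromal barcodes had at least 2 UMIs over Foxd1, Ntn1 and Crabp1 and none of the mural genes. With sums per library and library as a block, 368 of 7721 genes (4.77%) passed edgeR's quasi-likelihood test at a Benjamini-Hochberg adjusted p of 0.05, 196 higher (2.54%) and 172 lower (2.23%) in mural barcodes, and 146 passed without mutant 2. Without the 20 barcodes 358 of 7307 passed (4.9%), 180 higher (2.46%) and 178 lower (2.44%), and 311 were shared, which is 84.5% of the first set and 86.9% of the second. Values below come from the fit without them, in normalised CPM (scaled by edgeR's TMM factors), in the order mutant 1, mutant 2, wildtype 1, wildtype 2.

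Pdgfrb stood at 128, 255, 313 and 101 in mural and 28.4, 78.8, 64.0 and 30.1 in cortical stromal barcodes, higher in all 4 libraries (log2 fold change 1.90, SE 0.21, edgeR adjusted p = 2.33e-08). Heyl stood at 156, 140, 191 and 77.7 in mural barcodes, and at 0, 11.4, 8.42 and 12.5 in cortical stromal ones (log2 fold change 3.59). Akr1b7 stood at 85.2, 44.3, 197 and 175 against 4.74, 0, 8.42 and 12.5 (log2 fold change 4.22). In each of these genes the lowest mural library was above the highest stromal library, and the calls held with each library left out. Ndufa4l2 and Cox4i2, alternative subunits linked to the respiratory chain and used as pericyte markers, rose by log2 fold changes of 4.34 and 3.55. Mcam, an adhesion molecule of vessel walls, rose by 3.38, and the forkhead gene Foxs1 by 3.97. Among called genes that averaged 20 normalised CPM or more in mural barcodes, the largest change was that of Lgi1, a secreted protein known from the nervous system, at 14.2, 55.4, 34.8 and 17.3 against 4.74, 1.04, 0 and 0.734 (log2 fold change 4.73), a call that was lost without mutant 2. The others of the 10 largest were Agtr1a (4.31), the transcriptional corepressor Cbfa2t3 (3.86) and the transcription factor Gata3 (3.25).

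Of the mural list, 12 of 15 tested genes rose and none fell, with a median log2 fold change of 2.21 against -0.03 over all genes tested. Of the smooth muscle list 4 of 8 rose, led by Acta2 (log2 fold change 2.15, adjusted p = 1.56e-08 in edgeR), which stood at 667, 491, 92.8 and 132 against 99.6, 176, 10.1 and 22.0. Of the Notch list 4 of 9 rose: Heyl, Hey2 (2.80), Notch1 (1.26) and Notch3 (1.18), the last not without mutant 1 or without mutant 2. Of the basement membrane list 5 of 13 rose, among them the type IV collagen chains Col4a1 (2.17) and Col4a2 (2.31), which lie head to head in the genome and are known to be made together. The angiopoietins Angpt1 (1.45) and Angpt2 (2.69), ligands of the endothelial receptor TEK, rose as well, Angpt2 not without mutant 2. Mef2c, a transcription factor of muscle and vessel cells, rose by 2.47. Of the mesangial list 5 of 6 rose (Agtr1a, Gata3, Tbx3, Itga8 and Serpine2).

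Some genes of retinoic acid handling were lower in mural than in cortical stromal barcodes. Aldh1a2, the main enzyme of retinoic acid synthesis in embryos, stood at 42.6, 53.6, 220 and 247 in mural and 180, 183, 766 and 638 in cortical stromal barcodes (log2 fold change -1.63, edgeR adjusted p = 4.49e-09), lower in every library. Of the retinoic acid list 3 of 7 fell, among them Aldh1a2 and Crabp2, which fell by 2.90 on the log2 scale, and none rose. Prrx1, a homeobox gene of limb and body-wall mesenchyme, fell by 1.35, and of the stromal and mural transcription factors 8 fell and 5 rose among 21 tested. The largest falls were those of Egfl6 (log2 fold change -4.42), Pdzrn4 (-4.15), Pdzk1 (-3.88), Dpp4 (-3.84), Ly6a (-3.64), Ackr3 (-3.43), Bnc2 (-3.09), Meox1 (-3.09), Clu (-3.04) and Fxyd2 (-2.99). Pdzk1, Clu and Fxyd2 are also transcribed in kidney epithelia. Among markers of other types, 3 of 5 tested endothelial genes (Emcn, Plvap and Esam) were higher in mural barcodes, and the endothelial list summed to 322 and 251 CPM in the mutant and 248 and 248 CPM in the wildtype mural barcodes, against 68.7 and 147 CPM in the mutant and 82.0 and 188 CPM in the wildtype cortical stromal ones. Endothelial barcodes held 5027 and 6160 CPM in the mutant and 5051 and 5024 CPM in the wildtype libraries, and the part of endothelial RNA in the mural values was not tested.

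Against medullary stroma, Akr1b7 and Heyl were again among the 10 largest rises. The 338 medullary stromal barcodes had at least 2 UMIs over Penk and Alx1, fewer than 2 of the cortical genes and none of the mural genes, and mutant 1 gave only 9 of them. In this comparison 385 of 5044 genes passed edgeR's test (7.63%), 181 higher (3.59%) and 204 lower (4.04%), with 172 left without mutant 2 and 232 without wildtype 2. Without the 20 barcodes 412 of 4969 passed (8.29%), 196 higher (3.94%) and 216 lower (4.35%). Between the calls against cortical and against medullary stroma 131 genes were shared, 36.6% of 358 and 31.8% of 412, and the mural barcodes are common to both comparisons. Akr1b7 stood at 88.6, 44.98, 198 and 181 in mural and 0, 0, 0 and 2.90 normalised CPM in medullary stromal barcodes (log2 fold change 6.07, edgeR adjusted p = 1.59e-25). Fabp7, a fatty-acid binding protein best known from glia, followed at 5.34, and Heyl at 4.32. Pdgfrb rose by 2.08. The secreted Wnt inhibitors Dkk1 (3.35) and Dkk2 (3.08), the chemokine Ccl11 (3.24), Mef2c (3.498), the membrane proteins Tm4sf1 (3.54) and Parm1 (3.67) and the adhesion receptor Gpr126 (3.60) made up the rest of the 10 largest.

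Of the mural list 8 of 13 tested genes rose against medullary stroma and none fell (median log2 fold change 1.49, against 0.01 over all genes). Of 18 genes of the G2 and M phases 8 rose and none fell, Hmmr by 1.32 and Mki67 by 0.70. Medullary stromal barcodes had a median depth of 1849 and 2538 UMIs in mutant 1 and mutant 2. It was 2634 and 3183 in wildtype 1 and wildtype 2, below that of the members in every library. The part of depth in this comparison was not tested. The posterior Hox genes were lower: 5 of the 6 named in the genotype fell, with Hoxa10 at 133, 90.0, 122 and 190 in mural and 279, 399, 175 and 309 normalised CPM in medullary stromal barcodes (log2 fold change -1.21, edgeR adjusted p = 1.03e-07). The Hoxa10 call was lost without mutant 2. Interstitial collagens fell too, Col1a1 by 1.48 and Col3a1 by 0.84, among 7 lower and 2 higher of 16 tested interstitial matrix genes. Mgp, matrix Gla protein, which inhibits calcification of vessels, rose by 2.33. The neuropeptide genes Cck and Nts, the signalling gene Wnt5a, Sostdc1 and Gata2 were among the genes lower in mural barcodes, Sostdc1 at 0, 7.496, 0 and 0 against 139, 324, 38.0 and 50.7 normalised CPM (log2 fold change -5.53).

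Against endothelium the contrast was widest. Of 7270 genes, 1883 passed edgeR's test (25.9%), 789 higher (10.9%) and 1094 lower (15%), and 1038 passed without mutant 2. Without the 20 barcodes 1828 of 7160 passed (25.5%), 737 higher (10.3%) and 1091 lower (15.2%). Mgp stood at 393, 315, 448 and 232 in mural and 0, 2.53, 0 and 1.36 normalised CPM in endothelial barcodes (log2 fold change 7.31). Pdgfrb stood at 126, 247, 302 and 97.9 against 0, 4.05, 0 and 0 (log2 fold change 6.42, edgeR adjusted p = 8.03e-71), and its ligand gene Pdgfb at 0, 1.79, 0 and 0 against 7.10, 25.3, 35.1 and 21.7 (log2 fold change -4.53). Transcripts of this receptor were thus higher in mural and those of this ligand in endothelial barcodes of every library. Of the Notch genes, Notch3 was higher in mural barcodes by 6.13. The Notch ligand gene Dll4 was listed at 0 in every mural sum and at 63.9, 46.0, 46.0 and 31.2 in endothelial barcodes. This pair does not stand for the Notch list, receptors and ligands together. The list summed to 659 and 708 CPM in mutant and 604 and 392 CPM in wildtype mural barcodes. In endothelial barcodes it summed to 604 and 697 CPM in mutant and 650 and 435 CPM in wildtype libraries. Of the mural list 14 of 17 tested genes rose and 1 fell, the gap junction gene Gja4. Of the interstitial matrix list 17 of 18 rose, and of the endothelial list 15 of 15 fell. The basement membrane list went mostly the other way, with 3 higher and 8 lower of 12 (Col4a1 fell by 0.81 on the log2 scale). Mc2r, the receptor for the pituitary hormone ACTH, was among the 10 largest rises, at 14.04, 26.9, 44.8 and 33.6 in mural barcodes and 0 in every endothelial sum.

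The share of mural barcodes overlapped between the genotypes under the rule as given, and separated them when barcodes were thinned to 1000 UMIs. It was 1.64% in mutant 1 (exact 95% interval 0.900 to 2.74) and 1.97% in mutant 2 (1.59 to 2.42), against 2.001% in wildtype 1 (1.43 to 2.73) and 1.15% in wildtype 2 (0.875 to 1.49). The intervals cover counting error only. The mean was 1.81% ± 0.236 in mutant and 1.58% ± 0.601 in wildtype libraries (SD, n = 2 each), and the exact two-sided permutation test gave p = 1.0. With 2 libraries against 2, the exact permutation test cannot go below p = 0.333. Without the 20 barcodes the mutant mean was 1.49% ± 0.122 and the difference changed sign, to -0.0825 percentage points. With each barcode thinned to 2000 UMIs the share was 1.42% ± 0.604 in mutant and 0.791% ± 0.447 in wildtype libraries (exact permutation p = 0.667). Thinned to 1000 UMIs, with 727 and 3785 barcodes deep enough in mutant 1 and mutant 2 and 1784 and 4286 in wildtype 1 and wildtype 2, it was 0.688% and 0.978% in the mutant libraries and 0.561% and 0.280% in the wildtype libraries. Both mutant libraries then lay above both wildtype libraries (exact permutation p = 0.333, the smallest that this design allows), on 5 and 37 mutant and 10 and 12 wildtype barcodes. The thinned shares include the chromaffin-gene barcodes.

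**Figure D3:**
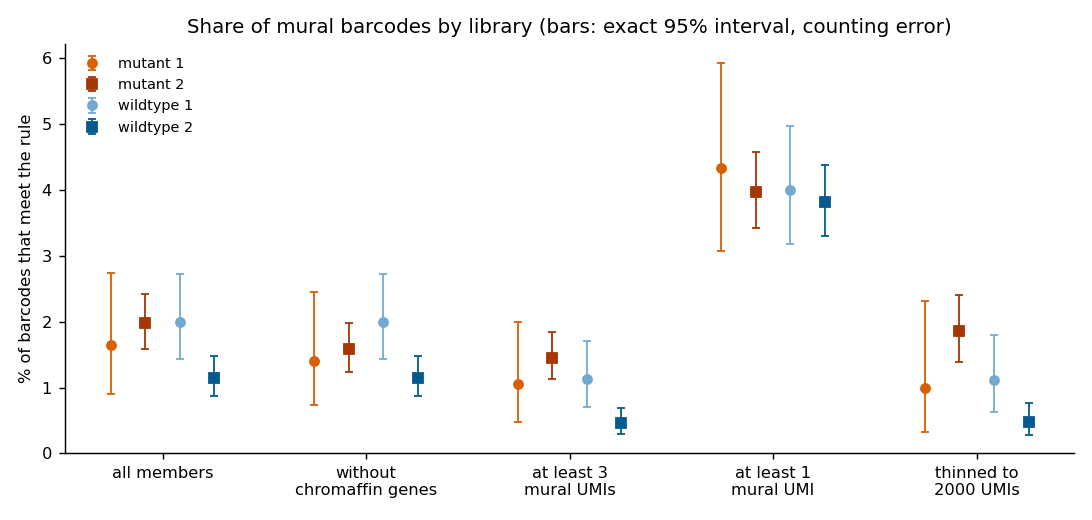
Share of barcodes that met the mural rule in each library, in percent, under 5 settings, with exact 95% binomial intervals; mutant libraries stand left of wildtype libraries. Under the rule as given, the intervals of both mutant libraries overlap that of wildtype 1, and that of mutant 2 (1.59 to 2.42) lies above that of wildtype 2 (0.875 to 1.49). Without the chromaffin-gene barcodes the interval of mutant 2 (1.24 to 1.99) overlaps that of wildtype 2.

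Within the mural barcodes, the genotype comparison was first read on the 6 targeted genes. Hoxa9 stood at 161 and 103 CPM in mutant and 84.5 and 133 CPM in wildtype barcodes (without the 20), Hoxa10 at 132 and 92.8 against 127 and 181, and Hoxa11 at 29.3 and 42.5 against 42.3 and 64.9. Hoxd9 stood at 58.6 and 32.9 in mutant and 24.2 and 31.0 in wildtype barcodes, Hoxd10 at 14.6 and 44.5 against 48.3 and 33.9, and Hoxd11 at 0 and 137 against 121 and 81.8. Transcripts of all 6 were thus counted in the mutant libraries, and the 5 that could be tested did not pass (edgeR adjusted p = 0.999 each). The labels leave unsaid where the alleles are changed, so counts of 3' ends that lie elsewhere in these genes are no check of the genotype.

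Over all 201 members 29 of 4518 genes passed edgeR's test (0.642%), 27 higher (0.598%) and 2 lower (0.0443%) in mutant barcodes, and 61 passed without wildtype 1. For comparison, the libraries of the genotypes did not overlap in 33% of the genes. Most of the higher genes were those of the 20 chromaffin-gene barcodes. Chga stood at 712 and 551 normalised CPM in mutant 1 and mutant 2 and at 0 in both wildtype libraries, at least 100-fold higher against 3 counts over the wildtype group. Hand2, a transcription factor of the sympathetic lineage, was at least 30.6-fold higher, the noradrenaline-making enzyme Dbh at least 22.7-fold and tyrosine hydroxylase Th at least 21.9-fold, each with 0 UMIs in both wildtype libraries. The noncoding RNA Meg3 stood at 2258 and 1217 normalised CPM in mutant and 197 and 198 in wildtype barcodes (log2 fold change 3.11, SE 0.43, edgeR adjusted p = 7.61e-05). The 181 other members hold almost no UMIs of the chromaffin genes by construction. In them Hand2, which did not define the removed barcodes, had 1 UMI, in a mutant library, and Meg3 did not pass (edgeR adjusted p = 0.962).

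Without those 20 barcodes 4 of 4601 genes passed (0.0869%), and all 4 rose: Acta2, Prrx1, Igfbp7 and Hist1h1e. In mm10 they lie on the minus strand, Acta2 at chr19:34241090-34255590, Prrx1 at chr1:163245119-163313710, Igfbp7 at chr5:77349240-77408041 and Hist1h1e at chr13:23620629-23622558. With 1 library left out, between 11 and 25 genes passed. No gene fell past the test, while 253 genes (5.50%) had an unadjusted p under 0.05 in edgeR in either direction, and DESeq2 called 1 gene in all, Acta2. For comparison, 32.4% of the genes tested had genotypes that did not overlap.

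Acta2 stood at 708 and 505 normalised CPM in mutant and 93.1 and 133 in wildtype mural barcodes (log2 fold change 2.36, SE 0.42, edgeR adjusted p = 0.00635). Both mutant libraries lay above both wildtype libraries. It was found in 7 of 12 and 51 of 72 mutant barcodes, against 12 of 39 and 20 of 58 wildtype barcodes. The barcode with the most Acta2 held 15 and 36 UMIs in mutant 1 and mutant 2, which is 31.9% and 13.5% of the UMIs of those libraries, against 3 and 7 UMIs in wildtype 1 and wildtype 2. The call held with each library left out and in DESeq2 (adjusted p = 0.0162). It was lost, with a log2 fold change of 1.63, when at least 2 of the 3 mural genes were required (edgeR adjusted p = 0.440), and also in 4 other choices of members, given in the closing section.

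The promoter of Acta2 is printed because the gene leads the genotype comparison and its control by serum response factor, through CArG boxes, is well known in smooth muscle. The window is chr19:34255324-34255623 on the minus strand (RefSeq, GRCm38.p6), and the capitals mark its 2 CArG boxes, found on both strands with at most 1 C or G among the 6 inner bases.
Acta2: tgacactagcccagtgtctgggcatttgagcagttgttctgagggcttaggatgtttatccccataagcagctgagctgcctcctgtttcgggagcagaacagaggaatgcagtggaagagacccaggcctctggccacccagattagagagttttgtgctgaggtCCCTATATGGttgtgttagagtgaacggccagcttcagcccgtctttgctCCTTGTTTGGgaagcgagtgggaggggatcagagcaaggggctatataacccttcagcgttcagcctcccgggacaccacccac
A CArG box by this definition occurred in 9.98% of the 32841 promoters of that length. The Acta2 window also held 1 TGGGAA, which overlaps the second CArG box. The windows of Igfbp7, Prrx1, Aldh1a2 and Dkk1 held neither motif. No binding was measured here.

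Igfbp7, a secreted binder of insulin-like growth factors found around vessels, stood at 512 and 486 normalised CPM in mutant and 122 and 119 in wildtype barcodes (log2 fold change 2.04, SE 0.41, edgeR adjusted p = 0.0202). It was found in 8 of 12 and 57 of 72 mutant barcodes and in 14 of 39 and 21 of 58 wildtype barcodes, and no single barcode held more than 29.4% of a library's UMIs. Prrx1 gave 11 and 38 UMIs in the mutant libraries, in 7 and 20 barcodes, against 1 and 0 in the wildtype libraries. Per UMI the mutant level was 43.5 times the wildtype level, with a counting interval of 7.45 to 1753 (edgeR adjusted p = 0.00635). The size of the Prrx1 difference depended on the excluded genes: without the requirement for Lum, Ogn and Lhx1 its fitted log2 fold change was 1.59 (edgeR adjusted p = 0.617), against 5.37 with it. Hist1h1e, a linker histone, stood at 45.2 and 347 normalised CPM in mutant and 17.5 and 26.1 in wildtype barcodes (log2 fold change 3.34, SE 0.65, adjusted p = 0.0433 in edgeR), so mutant 2 set its size. Histone genes have near-identical copies, which makes this value uncertain. The calls of Igfbp7 and Prrx1 were lost in DESeq2 (adjusted p = 0.122 and 0.399) and without wildtype 2, and that of Hist1h1e in DESeq2 (0.480), without the mitochondrial limit (edgeR adjusted p = 0.0551) and without the highest 5% by Scrublet (0.0650).

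Aldh1a2 and Dkk1 were lower in the mutant barcodes, past the test only with all 201 members, and not in DESeq2 or without wildtype 2. In all members Aldh1a2 stood at 53.8 and 49.9 in mutant and 220 and 247 normalised CPM in wildtype barcodes (log2 fold change -2.20, SE 0.45, edgeR adjusted p = 0.0127), and Dkk1 at 26.9 and 6.66 against 127 and 83.4 (log2 fold change -3.36, SE 0.70, edgeR adjusted p = 0.0138). Without the 20 barcodes the log2 fold changes were -2.15 and -3.19, with an adjusted p of 0.0566 for both. Without the 20, Aldh1a2 was found in 2 of 12 and 18 of 72 mutant barcodes, against 13 of 39 and 26 of 58 wildtype barcodes. Akr1b7 had the next smallest p among lower genes, at 90.4 and 45.6 in mutant and 198 and 177 in wildtype barcodes (log2 fold change -1.72, edgeR adjusted p = 0.332), which did not pass.

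**Figure D4:**
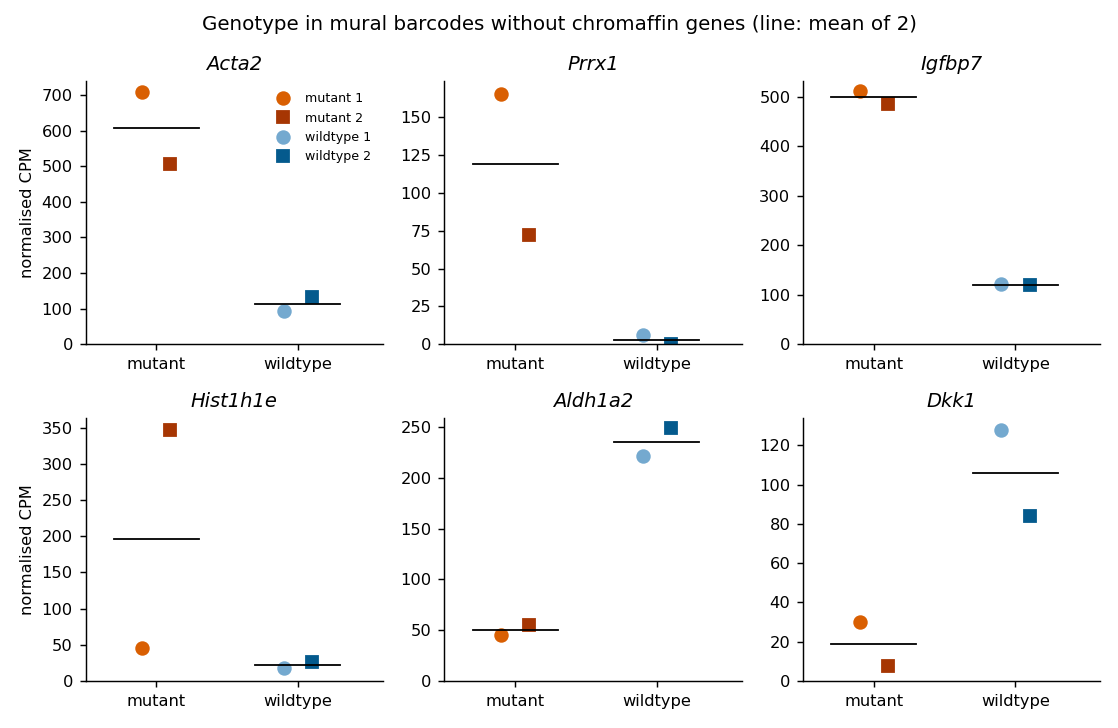
Normalised CPM of 6 genes in mural barcodes without chromaffin genes, mutant libraries left and wildtype libraries right; points are libraries and lines the mean of 2. Acta2, Igfbp7 and Prrx1 are higher in both mutant libraries, and Aldh1a2 and Dkk1 lower, while Hist1h1e is far higher in mutant 2 than in the other libraries.

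Most gene groups of mural cells did not pass between genotypes. Of the mural list 12 genes were tested, 0 passed (253 genes in all had an unadjusted p under 0.05 in edgeR, and DESeq2 called 0 of the list) and 11 had a log2 fold change above 0, with a median of 0.58 against 0.01 over all genes. Of the smooth muscle list 8 were tested, Acta2 passed and all 8 were above 0 (median 0.64). The basement membrane list had 9 of 10 above 0 (median 0.44), the interstitial matrix list 13 of 15 (0.46), the Notch list 5 of 7 (0.51) and the cyclic GMP and vasoactive receptor list 5 of 5 (0.89), with no member past the test. The hypoxia and glycolysis list had 0 of 9 above 0 (median -0.55) and the retinoic acid list 2 of 5 (-0.21). Over all 4601 genes tested, 2327 were above 0. Markers of other types moved beside these. The epithelial list summed to 87.9 and 131 CPM in mutant and 326 and 308 CPM in wildtype mural barcodes, the nephron progenitor list to 205 and 257 against 320 and 550 CPM, and the erythroid list to 132 and 356 against 272 and 993 CPM. The neural list summed to 117 and 213 CPM in mutant and 78.5 and 70.6 CPM in wildtype barcodes. Malat1, a nuclear RNA used here as a sign of RNA quality, stood at 3527 and 4094 normalised CPM in mutant and 1630 and 1796 in wildtype barcodes (adjusted p = 0.435 in edgeR). The part of these in the genotype differences was not tested.

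Whether the genotype differed more in mural cells than in stroma was tested as an interaction, with the cortical and medullary stromal barcodes summed together per library. Over all members 34 of 7640 genes passed edgeR's test (0.445%), 16 with a more positive (0.209%) and 18 with a more negative effect in mural barcodes (0.236%). Without the 20 barcodes 18 of 7329 passed (0.246%), 3 more positive (0.0409%) and 15 more negative (0.205%), of which 16 were among the 34. The stromal sums held 71 cortical and 9 medullary barcodes in mutant 1 and 245 and 93 in mutant 2, against 119 and 41 in wildtype 1 and 274 and 195 in wildtype 2. Cortical stromal barcodes had a median depth of 2297 and 2899 UMIs in mutant 1 and mutant 2, against 4068 and 4584 in wildtype 1 and wildtype 2. The part of that makeup and depth in the interactions was not tested.

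Of the 15 genes with a more negative effect in mural barcodes, 13 were higher in both mutant libraries than in both wildtype libraries of stroma, as were 16.6% of all 7329 genes tested. A negative interaction favours that order, so the count describes the chosen genes and is no separate result. In mural barcodes 3 of the 15 were higher in that sense (Postn and Meg3 among them), 3 were lower (Cxcl12, Col1a1 and Ptprd) and 9 overlapped, against 14.9% higher and 17.3% lower among all genes tested. Dkk2 stood at 87.2 and 205 normalised CPM in mutant and 223 and 145 in wildtype mural barcodes, and at 284 and 180 in mutant and 25.0 and 7.66 in wildtype stroma (interaction -3.90 on the log2 scale, SE 0.40, edgeR adjusted p = 4.07e-18). The genotypes overlapped in mural barcodes and did not in stroma. Cxcl12, the chemokine that binds CXCR4, stood at 58.2 and 56.7 in mutant and 177 and 105 in wildtype mural barcodes, and at 636 and 474 in mutant and 291 and 134 in wildtype stroma (interaction -2.60, SE 0.37), so that the genotypes were ordered oppositely in the pair of sets. The matrix genes Dcn (-2.30), Postn (-1.97), Col1a1 (-1.68) and Col1a2 (-1.08) passed in the same direction, 4 of 22 tested interstitial matrix genes, with 0 more positive. The angiotensin receptor gene Agtr2 (-1.70) did so too, as did the growth factor genes Ptn (-1.35) and Tgfb2 (-2.05), the imprinted genes Dlk1 (-1.81), Peg3 (-1.37) and Meg3 (-1.24), the phosphatase gene Ptprd (-1.82) and the transcription factor gene Gata6 (-2.21).

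The 3 genes with a more positive effect in mural barcodes were Col4a1, Igfbp7 and Fabp5. These calls depended on the method. Over all members, DESeq2 called 1 more positive gene, and edgeR without barcodes holding UMIs of another lineage also called 1. At most 1 of the 3 thus passed in either setting. Col4a1 stood at 320 and 450 normalised CPM in mutant and 298 and 226 in wildtype mural barcodes, and at 43.0 and 73.6 in mutant and 190 and 108 in wildtype stroma (interaction 1.78, SE 0.32, edgeR adjusted p = 3.49e-05). Igfbp7 stood at 494 and 468 in mutant and 120 and 119 in wildtype mural barcodes, and at 125 and 231 in mutant and 132 and 134 in wildtype stroma (interaction 1.41, SE 0.32, edgeR adjusted p = 0.00614). Its genotypes did not overlap in mural barcodes and did overlap in stroma. Fabp5, a fatty-acid binding protein, stood at 262 and 314 in mutant and 74.4 and 238 in wildtype mural barcodes, and at 73.1 and 57.9 in mutant and 76.3 and 152 in wildtype stroma (interaction 1.83).

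For the other genes of the genotype comparison no difference between mural barcodes and stroma was detected. Acta2 stood at 103 and 199 in mutant and 41.6 and 42.2 in wildtype stroma, and its interaction was 0.18 (SE 0.36, edgeR adjusted p = 0.999). Prrx1 stood at 254 and 177 in mutant and 40.2 and 22.0 in wildtype stroma (interaction 2.60, SE 1.10, edgeR adjusted p = 0.747) and Aldh1a2 at 172 and 147 in mutant and 645 and 466 in wildtype stroma (interaction -0.37, SE 0.37, edgeR adjusted p = 0.999). Both genes thus separated the genotypes in stroma in the same direction as in mural barcodes.

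**Figure D5:**
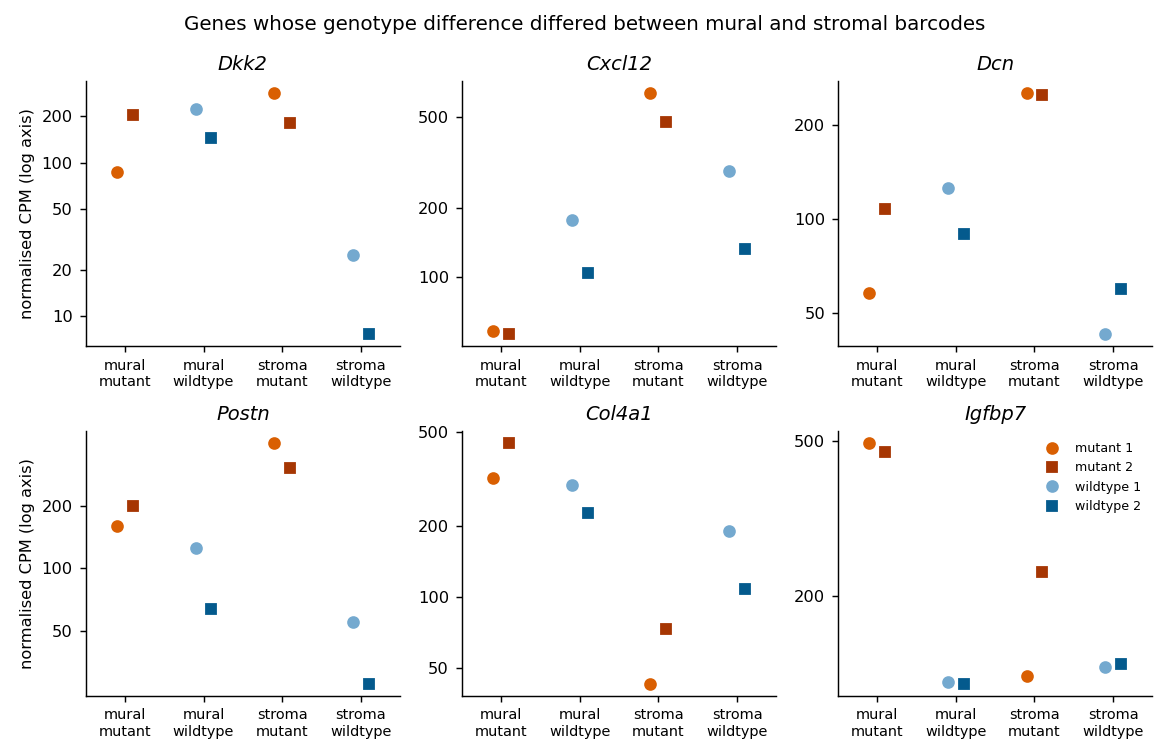
Normalised CPM (log axis) of 6 genes in mural barcodes without chromaffin genes and in cortical and medullary stromal barcodes together, mutant left of wildtype in each set; points are libraries. Dkk2, Cxcl12, Dcn and Postn are higher in both mutant libraries in stroma, and of these only Postn is so in mural barcodes; Col4a1 is lower in mutant stroma, and Igfbp7 is higher in mutant mural barcodes.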

How the data were processed

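The 4 Drop-seq libraries of E14.5 mouse kidney (2 mutant, 2 wildtype) were analysed. The authors deposited 1 table of whole-number counts per gene and barcode for each library, and Bowtie2 2.2.7 and the mm10 build are listed in the submitters' processing notes. How UMIs were collapsed, the strand setting and the annotation are not given in the sources used here. Counts were summed per library over the barcodes of each set, and tested with edgeR 4.0.16 (TMM scaling, filterByExpr, robust quasi-likelihood fit, Benjamini-Hochberg adjustment over all genes tested, threshold 0.05) in R 4.3.3. Genes of the rules stayed in the fits and in the adjustment, and were left out of the counts of genes tested and passed. DESeq2 1.42.0 was an alternative. Shares were compared by an exact two-sided permutation test and given exact binomial intervals, in scipy 1.17.1. Comparisons between sets used library as a block. The members and gene lists were chosen with earlier results of these data known. Named genes were the 10 largest changes past the test in each direction (between sets, with a mean of at least 20 CPM in the higher set), or the smallest p where fewer passed, and up to 4 members of each list. Predicted, mitochondrial, haemoglobin, ribosomal protein and sex-linked marker genes were not named. The tests were tried on simulated counts. Of genes changed by a log2 fold change of 2, the genotype fit without the chromaffin-gene barcodes recovered 63.2% of 87 among 3980 genes. Of those changed by 4 it recovered 100% of 91, and it made 4 false calls among unchanged genes. The simulation gave every gene the same dispersion (spread between libraries beyond counting error), which real genes need not share. Levels are not compared between genes, since 3' counts do not scale with length. Results for some genes are not reported here.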

Additional observations from a re-analysis of the deposited data

Results flagged for a closer look

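In 15 genes the effect of genotype differed between mural barcodes and cortical and medullary stroma by the interaction test, and did so without the barcodes that held chromaffin genes. The values are the mutant-over-wildtype effect in mural barcodes minus that in stroma, on the log2 scale. Genes of matrix and stroma had a more negative effect in mural barcodes: Dkk2 (-3.90), Cxcl12 (-2.60), Dcn (-2.30), Postn (-1.97), Col1a1 (-1.68) and Col1a2 (-1.08). The growth factor genes Tgfb2 (-2.05) and Ptn (-1.35), the imprinted genes Peg3 (-1.37) and Meg3 (-1.24), and Gata6 (-2.21) and Ptprd (-1.82) did as well. Fabp5 (1.83), Col4a1 (1.78) and Igfbp7 (1.41) had a more positive effect in mural barcodes. Many of these calls were not stable. Over all members, DESeq2 called 1 more positive and 8 more negative genes. Without barcodes holding UMIs of another lineage these were 1 and 5 in edgeR. The sign of Meg3 depended on the 20 chromaffin-gene barcodes. The makeup of the stromal sums and the depth of their barcodes differed between libraries, and their part in these values was not tested.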

How the results depend on the processing

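The share of mural barcodes differed between genotypes by -0.193 to 0.657 percentage points with 1 library left out. Counts of genes past the test moved more. The genotype comparison over all members (29 genes) gave 46 without the filter on low counts, 24 to 61 with 1 library left out, 0 with at least 2 of the 3 mural genes, 0 without barcodes holding UMIs of another lineage, and 4 without the chromaffin-gene barcodes. Without those barcodes (4 genes) it gave 1 in DESeq2, 11 without the filter, 11 to 25 with 1 library left out, and 0 with at least 3 mural UMIs, at least 2 mural genes, no requirement for Lum, Ogn and Lhx1, no UMIs of another lineage, or at least 1000 genes per barcode. In those 5 choices Acta2 had log2 fold changes of 1.63 to 2.54 and an edgeR adjusted p of 0.0576 to 0.440. Leaving out barcodes with UMIs of another lineage kept 6 and 24 mural barcodes in mutant 1 and mutant 2. It kept 21 and 26 in wildtype 1 and wildtype 2. The replicate numbers were not used to pair the libraries in the main fits. The correlation of deviations was -0.0693 over all members and -0.0499 without the chromaffin-gene barcodes (2 pairs). With sums this sparse, a low correlation cannot show that pairing is absent. With the replicate number as a block 17 genes passed over all members and 0 without the chromaffin-gene barcodes.

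The interaction (34 genes) gave 9 in DESeq2, 14 to 49 with 1 library left out, 11 with at least 2 mural genes, 9 with no requirement for Lum, Ogn and Lhx1, 6 without UMIs of another lineage and 18 without chromaffin genes. Against cortical stroma (368) DESeq2 gave 179, leaving out a library 146 to 439 and leaving out other lineages 110. Against medullary stroma (385) these were 135, 172 to 492 and 91, with 250 without the requirement for Lum, Ogn and Lhx1. Against endothelium (1883) they were 1126, 1038 to 2134 and 529. Among the genes reported, the values that changed sign were the genotype effect of Jag1 (-0.14) without the requirement for Lum, Ogn and Lhx1, and the interactions of Gap43 (-0.54 without chromaffin genes) and Meg3 (-1.12 with at least 2 mural genes, -0.80 without other lineages, -1.24 without chromaffin genes). The causes were not tested. Mutant 1 gave 12 mural barcodes without chromaffin genes, the fewest of the 4 libraries.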
